A study of Mus musculus with 9 samples.

Results

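The PARP enzymes add ADP-ribose, taken from NAD+, to proteins and nucleic acids, and 9 of them together with the ubiquitin ligase gene Dtx3l were followed here in mouse renal tubular epithelial cells. The genes were chosen by their symbol in the deposited expression table (Parp1, Parp2, Parp3, Parp8, Parp9, Parp10, Parp11, Parp12, Parp14 and Dtx3l), and all 10 were found among its 31167 genes. All 10 also passed the filter (0.5 FPKM or more on average), as did 13985 genes in all. By textbook knowledge they were divided into 6 interferon-inducible members (Parp9, Parp10, Parp11, Parp12, Parp14 and Dtx3l) and 4 others, namely the DNA-break sensors Parp1, Parp2 and Parp3, and Parp8.

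RNA was sequenced from primary renal tubular epithelial cells of C57BL/6 mice, in 3 groups with 3 libraries each. Sham cells were the negative control, with neither treatment named in their sample titles. H/R cells spent 6 h in glucose-free medium under 1.0% oxygen and then 18 h in complete medium with reoxygenation, which models ischemia and reperfusion in culture. EGR1OV cells were transfected with an overexpression plasmid for the transcription factor Egr1, under the CMV promoter according to the study. According to the study, the RNA-seq cells had either H/R or the plasmid, and Sham cells had neither. The labels, however, give 1 protocol with the transfection reagent EndoFectin Max and with H/R for every library, and the study's general methods place transfection before H/R. No group with an empty plasmid was among those compared, so in EGR1OV the Egr1 protein and the transfected DNA cannot be told apart. Nothing states that the replicates came from separate cultures or animals, so p-values measure the spread between these libraries, which may be technical.

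Parp1, Parp2 and Parp3 bind broken DNA and start its repair, and Parp1 makes most of the poly(ADP-ribose) of a cell. The interferon-inducible PARPs mostly add single ADP-ribose units and are known as restrictors of viruses and modulators of cytokine signalling, and their genes are switched on by the STAT and IRF factors that interferons activate. Parp9 has macrodomains that bind ADP-ribose and works in a complex with Dtx3l, a RING-type ubiquitin ligase of the deltex family that carries the ligase activity of the pair. Tubule cells under ischemic stress are known to activate Parp1, which consumes NAD+.

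Promoter sequence was read for the members because 8 of them were called higher in EGR1OV, as described further on. RefSeq promoter windows (250 bases before to 50 after a transcript start, GRCm38.p6) were held for 7 of the 10 members, and none was held for Parp9, Parp10 and Parp14. Both strands were searched for the interferon-stimulated response element core GAAANNGAA, the STAT (gamma-activated) site TTCNNNGAA and the Egr1 motif GCGNGGGCG. Of 32851 windows, 8.56% held the response element, 8.3% the STAT site and 5.55% the Egr1 motif. Of the members' windows, 1 held any of them, which is not far from the shares over all windows. It was 1 of 2 windows of Parp11, where both interferon motifs overlap just before the start, the first read on the opposite strand. Which of the 2 Parp11 starts these cells use cannot be read from the expression values. The other members' windows held none of these letters, which says nothing about sites outside them. The bases before the start are printed 5′ to 3′ on the strand of the gene for Parp11 with the run covered by both motifs in capitals, for Parp12 and Dtx3l as interferon-inducible members without a match, and for Parp1 as a DNA-break sensor. For Dtx3l the 71 bases that lie outside annotated exons are given. The positions were chr6:127446590-127446839 on the plus strand for Parp11, chr6:39118350-39118599 on the minus strand for Parp12, chr16:35939207-35939277 on the minus strand for Dtx3l and chr1:180568641-180568890 on the plus strand for Parp1.
Parp11: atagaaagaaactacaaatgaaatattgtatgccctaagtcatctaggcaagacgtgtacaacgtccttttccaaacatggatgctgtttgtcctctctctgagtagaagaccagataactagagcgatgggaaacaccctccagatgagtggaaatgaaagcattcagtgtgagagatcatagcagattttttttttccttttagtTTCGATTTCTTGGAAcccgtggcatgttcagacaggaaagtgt
Parp12: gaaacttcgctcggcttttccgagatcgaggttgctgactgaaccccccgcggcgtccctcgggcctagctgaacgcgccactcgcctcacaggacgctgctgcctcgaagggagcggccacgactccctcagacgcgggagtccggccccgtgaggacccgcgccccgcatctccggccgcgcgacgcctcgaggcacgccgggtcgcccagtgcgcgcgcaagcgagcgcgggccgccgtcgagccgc
Dtx3l: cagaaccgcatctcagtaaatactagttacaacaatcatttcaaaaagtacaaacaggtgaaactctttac
Parp1: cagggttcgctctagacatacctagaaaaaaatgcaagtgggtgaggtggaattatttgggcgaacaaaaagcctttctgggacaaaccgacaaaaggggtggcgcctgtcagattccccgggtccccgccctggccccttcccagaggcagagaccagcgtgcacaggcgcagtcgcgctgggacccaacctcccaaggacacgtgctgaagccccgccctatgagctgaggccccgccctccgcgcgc
The first base of the response element match lies at position -43 from the start in that Parp11 window and that of the STAT site at -37. The windows differed in base composition. GC content over the 300 bases was 42.0% for this Parp11 window and 73.7% for Parp12, with 5 and 46 CpG dinucleotides, against a median of 52.7% and 7 CpG over all windows. The other Parp11 window had 59.0% GC and 25 CpG. Dtx3l had 54.3% GC and Parp1 62.0%.

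Values are FPKM as deposited, the fragments of a gene relative to its exon length and to the size of the library. Depth recovered from the steps of the low values was 16183913 to 18384036 reads per library, and the members' values rest on 199 to 13412 reads each. Changes are log2 differences of FPKM + 1, which understate the change of low genes. They come from a single limma fit of all 9 libraries with Benjamini-Hochberg adjustment over 13985 genes. Calls needed an adjusted p under 0.05 together with 1.3-fold or more in EGR1OV, or 1.2-fold or more for H/R against Sham. As a check of the labels, Egr1 averaged 6.40 ± 0.443 FPKM in Sham, 7.88 ± 0.599 after H/R and 42.6 ± 2.84 with the plasmid (SD, n = 3 each). Tubule markers were present (10 of 11 at 1 FPKM or more in Sham), but the proximal tubule phosphate transporter Slc34a1 was at or near 0 in every library.

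EGR1OV cells held far more RNA of the interferon-inducible members than Sham cells. All 6 were called higher, by 3.70 to 21 times as ratios of mean FPKM. Of the other 4 members Parp3 and Parp8 were called higher, by 2.38 and 1.82 times, while Parp1 and Parp2 were not called. In all, 8 of the 10 members were called higher and 0 lower, where 9.87% of all tested genes were called higher and 6.51% lower. The median log2 change was 3.11 over the interferon-inducible members and 0.46 over the others, against 0.02 over all tested genes. In bulk RNA, fewer cells of a type and less RNA per cell cannot be told apart.

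Markers of other cells moved with EGR1OV as well. The summed FPKM of 11 leukocyte markers lay between 173 and 181 in Sham, between 148 and 160 after H/R and between 33.3 and 39.7 in EGR1OV, with 10 of the 11 at 1 FPKM or more in Sham and the pan-leukocyte marker Ptprc under 1. The sum of 11 tubule markers lay between 1929 and 1966 in Sham, between 1785 and 1863 after H/R and between 1270 and 1377 in EGR1OV, most of it from the keratins Krt8 and Krt18. The 6 endothelial markers summed to 9.81 to 10.1, 9.79 to 10.1 and 6.76 to 7.43 in the same order of groups. The 7 fibroblast markers summed to 32.8 to 34.5, 39.3 to 40.6 and 37.9 to 42.9. The leukocyte sum fell while the interferon-inducible members rose, and the part of cell make-up in the members' levels was not tested.

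**Figure D1:**
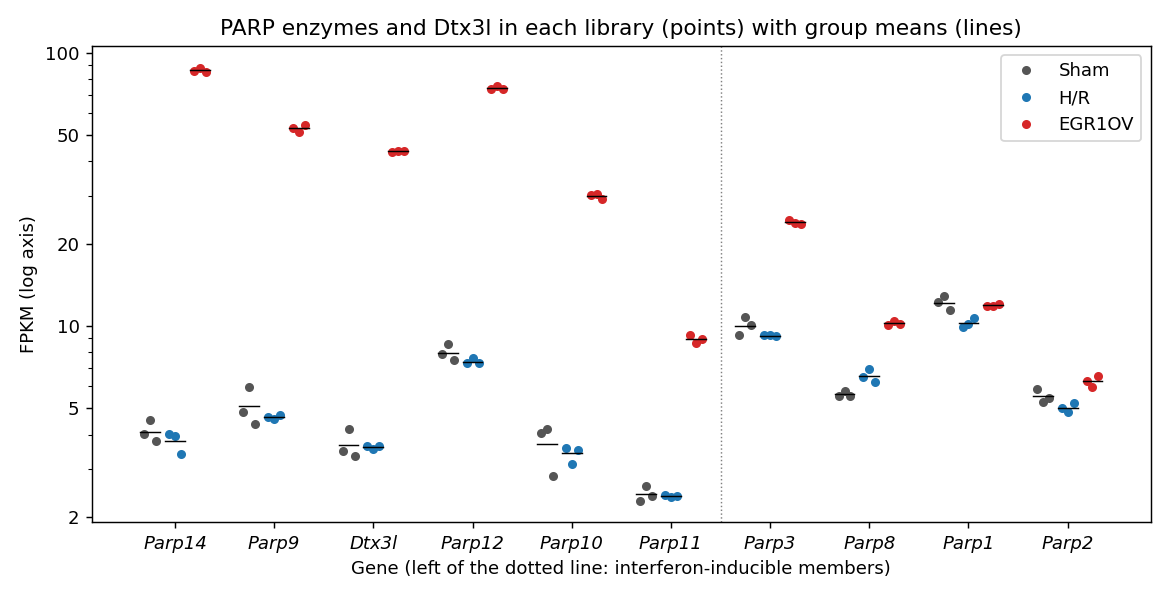
FPKM (log axis) of the 10 members in each of the 9 libraries, as points coloured by group with a line at the mean of the 3 libraries. In the genes left of the dotted line the EGR1OV points lie far above the Sham and H/R points, from 3.70 times the Sham mean for Parp11 to 21 times for Parp14, and the Sham and H/R points overlap.

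Parp14, the largest macrodomain PARP and a co-regulator of STAT6, had the largest rise of the members. The Sham libraries held 4.02, 4.51 and 3.78 FPKM, the H/R libraries 4.02, 3.95 and 3.41, and the EGR1OV libraries 85.6, 88.2 and 84.9. The lowest EGR1OV library lay far above every other library, and Sham and H/R overlapped. The log2 change in EGR1OV was +4.10 (SE 0.063, limma adjusted p 7.51e-11), the 49th largest of 13985 genes.

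Parp9 and Dtx3l, the partners of the ADP-ribose and ubiquitin complex, rose by similar amounts. Parp9 was at 4.86, 5.98 and 4.39 FPKM in Sham, 4.65, 4.58 and 4.71 after H/R, and 53.1, 51.4 and 54.2 in EGR1OV. Dtx3l was at 3.47, 4.21 and 3.33 FPKM in Sham, 3.64, 3.54 and 3.62 after H/R, and 43.4, 43.7 and 43.6 in EGR1OV. For both genes the EGR1OV libraries stood apart from the other 6, and the second Sham library was the highest of its group. The log2 change was +3.16 for Parp9 (SE 0.079, limma adjusted p 1.86e-09) and +3.26 for Dtx3l (SE 0.062, limma adjusted p 2.59e-10).

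Parp12 encodes a zinc-finger PARP that binds RNA and restricts alphaviruses. Its level was 7.87, 8.57 and 7.52 FPKM in Sham, 7.28, 7.61 and 7.31 after H/R, and 73.5, 75.5 and 73.9 in EGR1OV. The rise of 3.07 on the log2 scale (SE 0.043, limma adjusted p 4.62e-11) had the smallest standard error of the interferon-inducible members. Parp10, a mono-ADP-ribosyltransferase with ubiquitin-binding motifs, was at 4.05, 4.19 and 2.82 FPKM in Sham, 3.58, 3.13 and 3.52 after H/R, and 30.2, 30.4 and 29.2 in EGR1OV. Here the third Sham library was the lowest, the coefficient of variation of Sham was 20.4%, and the log2 change was +2.74 (SE 0.10, limma adjusted p 3.85e-08). In the annotation 205 exon bases of Parp10 are shared with Plec on the same strand, so reads there cannot be assigned to either gene with certainty.

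Parp11, a mono-ADP-ribosyltransferase of the nuclear envelope, had the lowest level and the smallest rise of the interferon-inducible members. It was at 2.29, 2.59 and 2.39 FPKM in Sham, 2.40, 2.36 and 2.38 after H/R, and 9.30, 8.64 and 8.93 in EGR1OV. Groups did not overlap between EGR1OV and the rest, and the log2 change was +1.54 (SE 0.048, limma adjusted p 8.12e-09). On this scale the rise of a gene near 2 FPKM is understated more than that of the others, and with a pseudocount of 0.1 it was 1.84.

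Among the DNA-break sensors, Parp3, which acts in double-strand break repair, was the one that rose. Its values were 9.22, 10.8 and 10.1 FPKM in Sham, 9.25, 9.23 and 9.16 after H/R, and 24.4, 23.9 and 23.5 in EGR1OV, with no overlap between EGR1OV and the others. The log2 change was +1.18 (SE 0.048, limma adjusted p 6.78e-08). Parp8, a mono-ADP-ribosyltransferase of little known function, was at 5.56, 5.75 and 5.53 FPKM in Sham, 6.50, 6.93 and 6.25 after H/R, and 10.1, 10.4 and 10.2 in EGR1OV. The 3 groups did not overlap, in the order Sham, H/R, EGR1OV, and the log2 change in EGR1OV was +0.76 (SE 0.041, limma adjusted p 5.1e-07).

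Parp1, the main enzyme of poly(ADP-ribose) synthesis, was at 12.2, 12.8 and 11.4 FPKM in Sham and at 11.8, 11.9 and 12.0 in EGR1OV. These groups overlapped, and the log2 difference of -0.03 had a 95% interval from -0.13 to 0.08 (limma adjusted p 0.679). With quantile normalization the Parp1 difference was -0.13 (limma adjusted p 0.0363), short of 1.3-fold. Parp2, the second DNA-break PARP of base excision repair, was at 5.85, 5.26 and 5.46 FPKM in Sham and 6.27, 5.97 and 6.54 in EGR1OV. Its difference of +0.15 (SE 0.049, limma adjusted p 0.029) was under the 1.3-fold threshold. With median-ratio scaling the Parp2 difference was 0.13 (limma adjusted p 0.064), and with quantile normalization 0.07 (limma adjusted p 0.255).

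**Figure D2:**
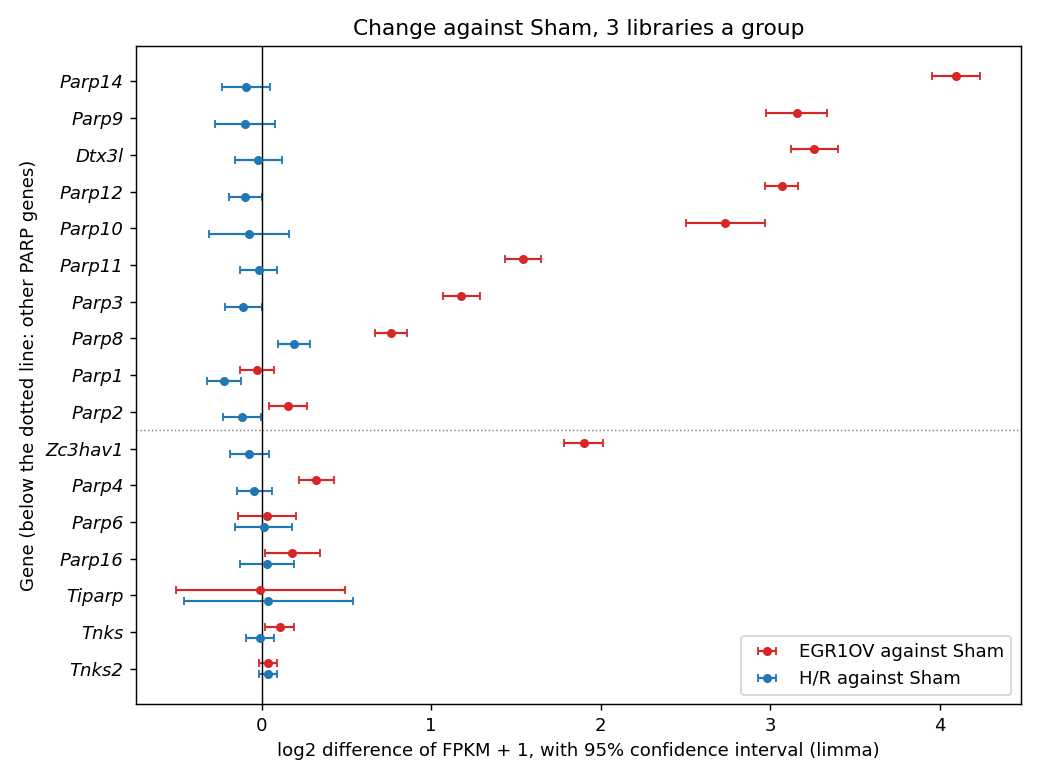
Log2 difference of FPKM + 1 against Sham with 95% confidence intervals (limma) for the 10 members and, below the dotted line, the 7 other PARP genes. EGR1OV differences run from -0.03 for Parp1 to 4.10 for Parp14, and those of H/R from -0.22 for Parp1 to 0.19 for Parp8.

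H/R left the interferon-inducible members near the Sham level. None of the 10 members was called, where 4.25% of all tested genes were called in either direction. The log2 differences of the 6 interferon-inducible members ran from -0.10 to -0.02, with limma adjusted p of 0.183 or more, and their median was -0.08 against -0.03 over all tested genes. An unadjusted p under 0.05 was found for 3 members (Parp1, Parp2 and Parp8), where 28.0% of all tested genes had one, and limma voom on reads recovered from the FPKM also called 0. The second Sham library was the highest Sham library in 9 of the 10 members, and without it the differences of Parp9, Parp10, Parp11 and Dtx3l turned to values from 0.0044 to 0.063. The sign of Parp11 and Dtx3l also turned with median-ratio scaling and with quantile normalization.

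With no fold threshold, 2 members had an adjusted p under 0.05 after H/R, where 11.7% of all tested genes did. Parp1 was at 9.92, 10.2 and 10.7 FPKM in the H/R libraries, each below the lowest Sham library. Its log2 difference was -0.22 (SE 0.045, limma adjusted p 0.0152), a ratio of mean FPKM of 0.845. It falls just short of 1.2-fold on the log2 scale. Without the third Sham library, the lowest, the difference of -0.26 was called (limma adjusted p 0.0135), and without the first Sham library its limma adjusted p was 0.0513. Parp8 was higher after H/R by 0.19 (SE 0.041, limma adjusted p 0.0199), under 1.2-fold, with its 3 values above the 3 Sham values. With the first Sham library left out its limma adjusted p was 0.0613, and over all alternatives it ran from 0.003 to 0.0659. Parp2 was at 5.02, 4.84 and 5.21 FPKM, below the Sham values without overlap, and its difference of -0.11 had a limma adjusted p of 0.166. Parp3 overlapped Sham, with a difference of -0.11 (limma adjusted p 0.183).

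EGR1OV and H/R were also compared directly. The same 8 members were called higher in EGR1OV, where 11.9% of all tested genes were called higher, and the differences ran from 0.57 for Parp8 to 4.19 for Parp14. Parp1 and Parp2 were higher by 0.20 (SE 0.045, limma adjusted p 0.00509) and 0.27 (SE 0.049, limma adjusted p 0.00149), both under 1.3-fold. With quantile normalization these differences were 0.065 (limma adjusted p 0.259) and 0.15 (limma adjusted p 0.0272). The comparisons share libraries, those of Sham for both treatments and those of EGR1OV here, and they are not separate evidence.

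The order of the members by level changed between groups. FPKM is per exon length, so levels can be set side by side. In Sham the order was Parp1 (12.1 FPKM), Parp3 (10.03), Parp12 (7.99), Parp8 (5.61), Parp2 (5.52), Parp9 (5.08), Parp14 (4.10), Parp10 (3.69), Dtx3l (3.67) and Parp11 (2.42). Neighbours from Parp8 to Dtx3l in that order overlapped between their libraries, so their places are not set apart. In H/R the order was the same except that Dtx3l stood before Parp10, and there Parp14 overlapped with Dtx3l and Dtx3l with Parp10. In EGR1OV the order was Parp14 (86.2 FPKM), Parp12 (74.3), Parp9 (52.9), Dtx3l (43.6), Parp10 (29.9), Parp3 (23.9), Parp1 (11.9), Parp8 (10.2), Parp11 (8.96) and Parp2 (6.26), with no overlap between any neighbours. Parp1 went from place 1 to place 7 at an almost equal level.

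The 7 PARP genes outside the set were read from a list chosen by family membership. Of these, 1 was called higher in EGR1OV and 0 lower, with a median log2 change of 0.11. That is near the share of all tested genes, 9.87% higher and 6.51% lower. The called gene was Zc3hav1, which encodes the zinc-finger antiviral protein, and it went from 9.99, 11.1 and 9.37 FPKM in Sham to 39.3, 40.8 and 41.5 in EGR1OV (log2 change +1.90, SE 0.051, limma adjusted p 3.08e-09). Parp4, the vault PARP, was higher by 0.32 (SE 0.046, limma adjusted p 0.00034), just under 1.3-fold. The tankyrases Tnks and Tnks2, which act in telomere upkeep and Wnt signalling, differed by 0.11 and 0.04, and Parp6, Parp16 and Tiparp by 0.03, 0.18 and -0.01. Tiparp, a target of the aryl hydrocarbon receptor, was at 5.06, 4.89 and 10.8 FPKM in H/R, so that the last of the H/R libraries stood apart, and its H/R difference of 0.04 became -0.29 (limma adjusted p 0.0118) without it.

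The make-up of the PARP transcripts shifted accordingly. The summed FPKM of 16 PARP genes, Dtx3l not being one, was 127 ± 5.06 in Sham, 124 ± 3.62 after H/R and 410 ± 1.59 with the plasmid (SD, n = 3 each). The 5 interferon-inducible PARPs made up 18.2% ± 1.23 of it in Sham, 17.4% ± 0.718 after H/R and 61.5% ± 0.169 in EGR1OV. Parp1, Parp2 and Parp3 together went from 21.7% ± 0.102 in Sham to 19.7% ± 0.187 in H/R and 10.3% ± 0.131 in EGR1OV, and the tankyrases from 33.5% ± 0.68 to 34.9% ± 0.747 and 10.9% ± 0.133. The smaller shares in EGR1OV came with levels of Parp1, Tnks and Tnks2 close to those in Sham. Over the 9 PARP members alone the interferon-inducible share was 41.1% in Sham, 41.1% after H/R and 82.8% in EGR1OV.

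**Figure D3:**
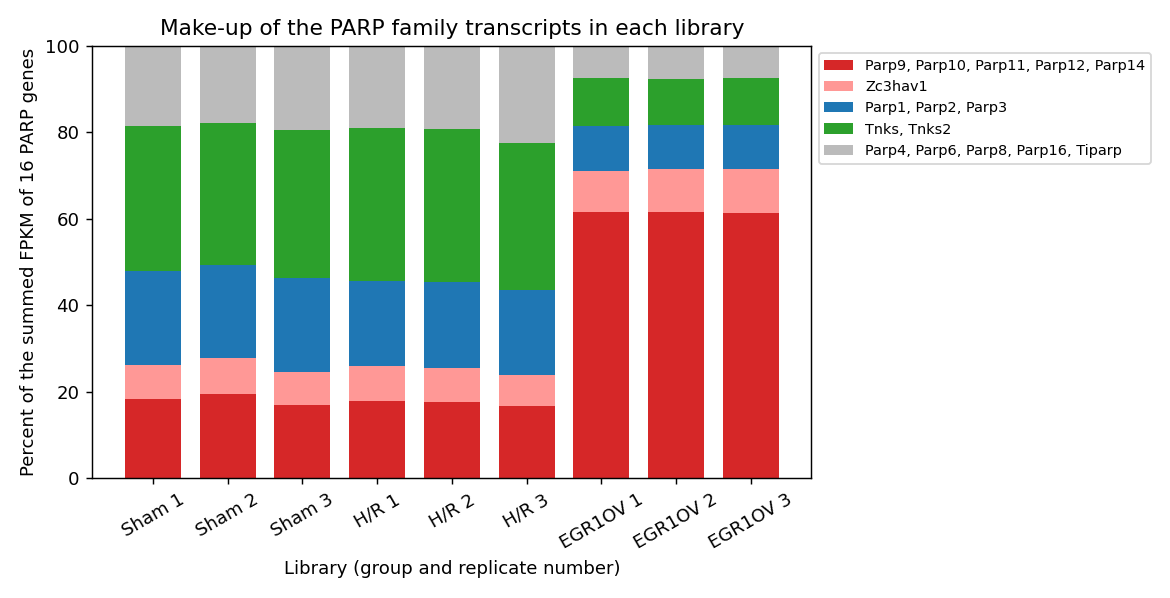
Percent of the summed FPKM of 16 PARP genes in each of the 9 libraries, stacked by the groups of genes in the key. The dark red part (Parp9, Parp10, Parp11, Parp12 and Parp14) holds between 17.0% and 19.4% in the Sham libraries and between 61.3% and 61.7% in the EGR1OV libraries.

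Parp14, Dtx3l and Parp9 lie side by side on chromosome 16. At the positions in the deposited table, which equal the GRCm38 annotation, Parp14 (ENSMUSG00000034422) spans chr16:35832874-35871544 on the minus strand, Dtx3l (ENSMUSG00000049502) chr16:35926511-35939151 on the minus strand and Parp9 (ENSMUSG00000022906) chr16:35938470-35972605 on the plus strand. Dtx3l and Parp9 stand head to head and share 682 bases, 458 of them in annotated exons of both. Nothing states that counting used strand, so reads in that stretch cannot be told apart between them. A gap of 54967 bases separates Parp14 from Dtx3l. Of 10 other genes with a start within 250 kb, 6 were tested and 0 were called in EGR1OV against Sham. Over all tested genes 9.87% were called higher and 6.51% lower, so 0 of 6 is near that share. The tested ones (Dirc2, Hspbap1, Kpna1, Wdr5b, Fam162a and Ccdc58) had log2 changes from -0.36 to -0.09. Wdr5b, Dirc2 and Hspbap1 were lower at limma adjusted p of 0.00343, 0.0202 and 0.0361, short of 1.3-fold on this scale. The rest had 0.0801 or more. Wdr5b went from 1.55 to 0.98 FPKM, a low level at which this scale understates the change. With no fold threshold, 6417 of 13985 tested genes were under 0.05. After H/R, 1 of the 6 was called, where 4.25% of all tested genes were. It was Fam162a, a hypoxia-induced mitochondrial gene, which went from 73.5 ± 5.86 to 129 ± 7.86 FPKM (SD, n = 3; log2 change +0.80, limma adjusted p 0.000195).

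**Figure D4:**
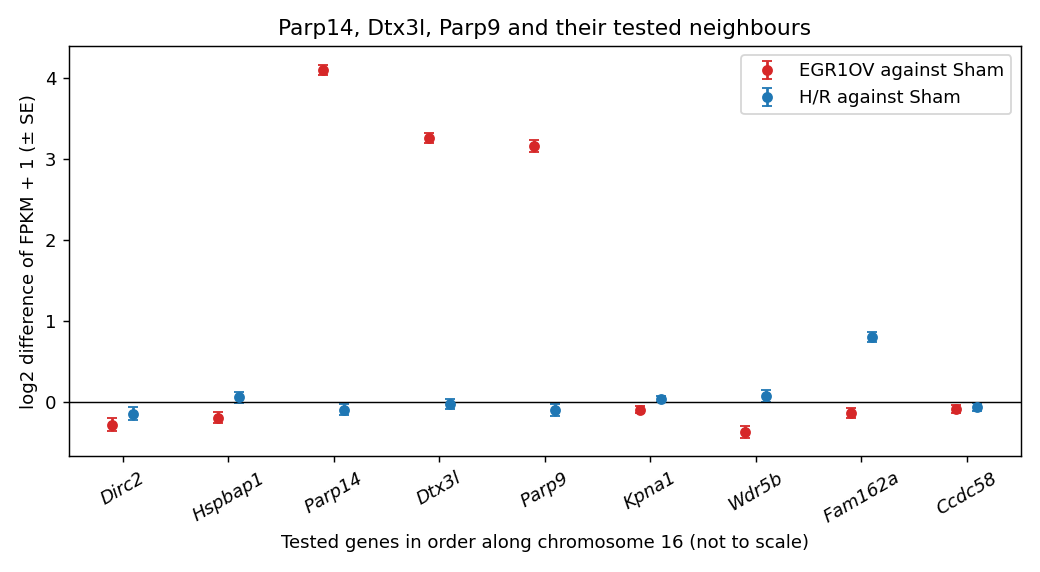
Log2 difference of FPKM + 1 against Sham (± SE, limma, n = 3 libraries a group) for the tested genes in their order along chromosome 16. Parp14, Dtx3l and Parp9 stand between 3.16 and 4.10 in EGR1OV, and the 6 neighbours between -0.36 and -0.09.

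Ratios within a library put the 3 neighbours side by side, as log2 ratios of FPKM + 1. The ratio of Parp9 to Dtx3l was 0.39, 0.42 and 0.31 in Sham, 0.29, 0.30 and 0.30 after H/R, and 0.28, 0.23 and 0.31 in EGR1OV. The Sham values were the highest without overlap, by 0.10 over EGR1OV and 0.08 over H/R, and an exact two-sided permutation test gave p = 0.1 for both, the smallest that 3 against 3 allows. EGR1OV and H/R overlapped (exact permutation p = 0.6). With a pseudocount of 0.1 in place of 1, the ratio was lower in EGR1OV than in Sham by a log2 difference of -0.17, and EGR1OV then lay below H/R without overlap, at -0.082 (exact permutation p = 0.1). The ratio of Parp14 to Dtx3l was 0.17, 0.08 and 0.14 in Sham, 0.11, 0.13 and -0.07 after H/R, and 0.96, 1.00 and 0.95 in EGR1OV. It was higher in EGR1OV than in Sham by 0.84 (exact permutation p = 0.1), and every EGR1OV library lay above every Sham and H/R library.

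**Figure D5:**
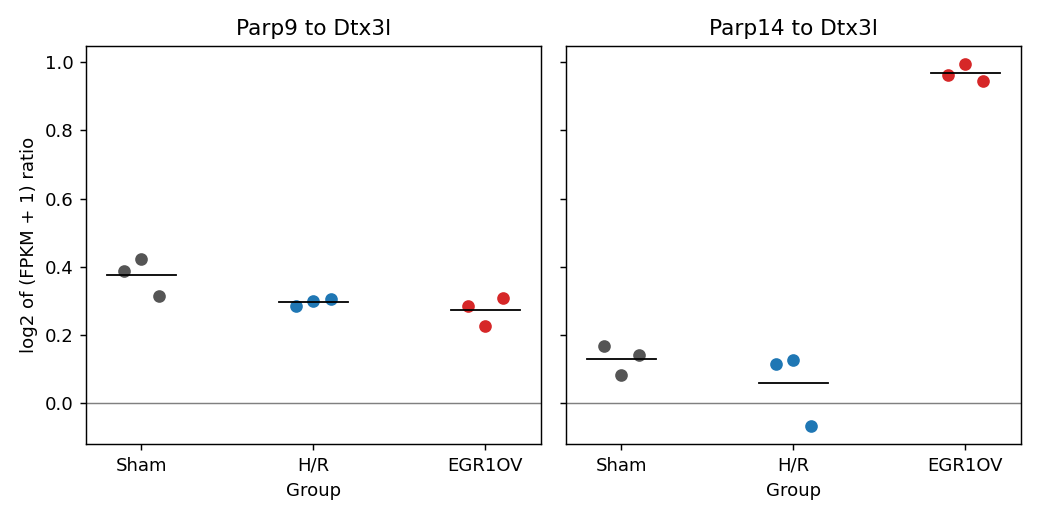
Log2 ratio of FPKM + 1 of Parp9 to Dtx3l (left) and of Parp14 to Dtx3l (right) in each library, with a line at the group mean. The left panel holds means of 0.38, 0.30 and 0.27 for Sham, H/R and EGR1OV, and the right panel 0.13, 0.06 and 0.97.

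The genes of nearest pattern were ranked by the Euclidean distance of log2(FPKM + 1) over the 9 libraries, each gene centred on its Sham mean, among 8072 genes whose mean reached 5 FPKM in some group. Nearest to Parp14 were Rnf213 (distance 0.18), Stat2 (0.19) and Bst2 (0.30). Among the 3 nearest to Dtx3l were F830016B08Rik (0.24) and H2-D1 (0.24), and nearest to Parp9 were Irgm1 (0.20), H2-T22 (0.21) and Parp12 (0.24). Dtx3l had rank 4 for Parp9, and Parp9 had rank 4 for Dtx3l. H2-D1, H2-T22 and F830016B08Rik belong to families of similar genes whose reads may be shared. With a pseudocount of 0.1 the first for Dtx3l was Ifih1 and for Parp9 H2-T22, while Rnf213 and Stat2 stayed nearest to Parp14. Nearest to Parp1 were Nelfcd (0.09), Cc2d1b (0.11) and Cops6 (0.11).

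The interferon signalling chain, the ligand, receptors, kinases and factors that drive such genes, was read from a list of 12 genes, all tested. In EGR1OV 8 were called higher and 0 lower, with a median log2 change of 0.57, where 9.87% of all tested genes were called higher. Ifnb1 passed the filter on low values through EGR1OV alone, so it had to differ, and without it 7 of 11 were called higher, with a median of 0.51. Stat2 went from 3.23 ± 0.533 FPKM in Sham to 70.2 ± 3.51 in EGR1OV (SD, n = 3; log2 change +4.08, limma adjusted p 4.92e-10). Irf9, its DNA-binding partner, changed by +2.17 (limma adjusted p 6.33e-08). Ifnb1, the ligand interferon beta, was listed at 0 in all 6 Sham and H/R libraries and at 3.05, 3.02 and 1.90 FPKM in EGR1OV, which stand for 38, 37 and 24 reads. The 4 genes not called in EGR1OV differed short of 1.3-fold, in both directions. Lower were Ifngr1 (-0.37, limma adjusted p 2.52e-05) and Ifnar1 (-0.10, limma adjusted p 0.0313), and higher were Ifngr2 (+0.31) and Jak1 (+0.23). After H/R 0 of the 12 were called, and 4 had an unadjusted p under 0.05 (28.0% of all tested genes).

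Genes that remove or read ADP-ribose were read from a list of 15, of which 13 were tested. In EGR1OV 1 was called higher and 0 lower, a share near that of all tested genes (9.87% higher and 6.51% lower), and 6 had an unadjusted p under 0.05, as did 52.5% of all tested genes. The called gene was Macrod1, a mono-ADP-ribose hydrolase, from 2.87 ± 0.128 to 4.30 ± 0.835 FPKM (SD, n = 3; log2 change +0.44, limma adjusted p 0.0117). Alc1, Gdap2, Chfr and Oard1 were also under an adjusted p of 0.05 by limma, with log2 changes of 0.37, -0.22, -0.15 and -0.17, short of 1.3-fold. Of the single-strand break repair partners of Parp1, 7 of 8 were tested and 0 were called, with 3 at an unadjusted p under 0.05. Of the other deltex genes 3 of 4 were tested and 0 were called, with 2 at an unadjusted p under 0.05. The median log2 change of these lists was 0.00, 0.09 and 0.10, against 0.02 over all tested genes.

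The supply of NAD+, the substrate of every active PARP, was read from 10 genes, 7 of them tested. In EGR1OV 2 were called higher and 0 lower, where 9.87% of all tested genes were called higher and 6.51% lower. Nampt, the rate-limiting enzyme of NAD+ salvage, went from 7.28, 8.26 and 8.58 FPKM in Sham to 29.9, 27.7 and 31.3 in EGR1OV (log2 change +1.76, SE 0.062, limma adjusted p 2.31e-08), with 7.52, 7.82 and 8.10 in H/R. Nmnat3, which makes NAD+ from nicotinamide mononucleotide, changed by +0.39 (limma adjusted p 0.000341). Of 9 tested genes of other NAD+ consumers 2 were called higher and 0 lower. The 2 were the sirtuins Sirt6 (+0.54, limma adjusted p 0.000397) and Sirt7 (+0.44, limma adjusted p 8.53e-05). In lists this short, 2 calls are not far from the share of all tested genes. None of the lists in these paragraphs had a gene called after H/R, where 4.25% of all tested genes were called.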

How the data were processed

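RNA of cultured mouse tubular cells was sequenced by Illumina as 9 libraries, 3 each for Sham, H/R and EGR1OV, grouped by the sample titles. The authors deposited FPKM values, 1 column per library, without pooling. The labels' processing notes name Bowtie2 2.2.3, HISAT2 2.1.0, TopHat2 and the build mm9, but 94.7% of gene positions in the table equal GENCODE M21 (GRCm38), whose exon lengths were used. The counting step and its use of strand are not given in the sources used here. Of 162939 values of 1 to 1000 reads recovered from the FPKM steps, 94.0% were whole within 0.02 reads. No replicate columns were identical, and no libraries were merged. In 26 rows a symbol turned into a date was restored from its identifier.

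Values were tested as log2(FPKM + 1) with limma 3.58.1 (R 4.3.3, eBayes with trend, two-sided, all 9 libraries), for the 13985 genes that averaged 0.5 FPKM or more. The thresholds against Sham are those of the study, and between EGR1OV and H/R 1.3-fold was used. Ratios of 2 genes were compared by exact two-sided permutation tests. Motifs were searched by their letters in the RefSeq windows, and tables and figures were made with Python 3.11.15 (pandas 2.3.3, numpy 2.4.6, matplotlib 3.10.9, scipy 1.17.1). The fit was tested on simulated data whose replicate spread was smaller than that of some members in Sham. That test therefore does not bear on the spread of these libraries. The members, gene lists, naming rule and tests were chosen with earlier results of these data known. All 10 members, the 7 other PARP genes, up to 3 called genes of each other list with the largest change, the 3 genes nearest in pattern to Parp9, Dtx3l, Parp14 and Parp1, and tested neighbours on chromosome 16 were named, except 1 gene that is not reported here. Alternatives were a pseudocount of 0.1, no filter, a stricter filter at 5 FPKM, quantile normalization, median-ratio scaling, a replicate block, limma without trend, only the groups compared, limma voom on recovered reads, no fold threshold, a 2-fold threshold, and each library left out. Reads are not independent molecules, so the read numbers bear on counting error only.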

Additional observations from a re-analysis of the deposited data

Results flagged for a closer look

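Between EGR1OV and H/R 8 members were called by the test of the difference itself with at least 1.3-fold, where 11.9% of all tested genes were called higher. Parp1 and Parp2 also had a limma adjusted p under 0.05 (0.00509 and 0.00149), with differences of 0.20 and 0.27 under 1.3-fold. The values that follow are those of the 8. The log2 difference of FPKM + 1 was 4.19 for Parp14, 3.28 for Dtx3l, 3.25 for Parp9, 3.16 for Parp12, 2.81 for Parp10, 1.56 for Parp11, 1.29 for Parp3 and 0.57 for Parp8 (limma adjusted p at most 3.64e-06, higher in 3 of 3 EGR1OV libraries for each). The treatments share the Sham libraries. The cell make-up of the cultures, which differed in the marker sums, was not tested as a part of these differences.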

How the results depend on the processing

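Of 597 alternative values of the members' 30 changes, 580 kept their direction and side of the threshold, 6 came past it and 2 fell short of it, both of Parp8 at 2-fold. In the other 9 the sign of a difference near 0 turned. In both comparisons with EGR1OV 8 members were called higher under each alternative, except 7 at 2-fold, 7 with the stricter filter at 5 FPKM, which leaves Parp11 untested, and, with no fold threshold, 9 against Sham and 10 against H/R. Parp10, Parp14 and Dtx3l averaged under 5 FPKM in both Sham and H/R and passed the stricter filter only through EGR1OV. Parp9 was at 5.08 FPKM in Sham and 4.65 in H/R. The calls of these members under that filter are therefore no separate support. After H/R, 1 member was higher (Parp8) and 1 lower (Parp1) with no fold threshold, and with a library left out between 0 and 1 were lower.

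Signs turned after H/R for Parp11 (0.0066) and Dtx3l (0.0078) with median-ratio scaling, and for Parp11 (0.0245) and Dtx3l (0.028) with quantile normalization. With a library left out the H/R difference ran from -0.1791 to 0.0076 for Parp9, from -0.2162 to 0.0044 for Parp10, from -0.044 to 0.0176 for Parp11, from -0.0699 to 0.0627 for Dtx3l and from -0.2863 to 0.2132 for Tiparp. In EGR1OV against Sham it ran from -0.0673 to 0.0116 for Parp1, from -0.0078 to 0.1052 for Parp6 and from -0.0252 to 0.0134 for Tiparp. Quantile normalization turned Parp6 (-0.0409), Tnks (-0.0027) and Tnks2 (-0.0476) there. The cause of these turns was not tested.

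Over all genes, EGR1OV against Sham gave 1315 calls with the stricter filter at 5 FPKM, which tests fewer genes, 6417 with no fold threshold and 484 at 2-fold, against 2291. H/R against Sham gave 372, 1635 and 11, and 1001 with voom, against 594. EGR1OV against H/R gave 1520, 7135 and 489, against 2641. The higher share of the calls was 60.3%, 37.7% and 63.2% in these comparisons as deposited, 54.1%, 54.9% and 51.9% with median-ratio scaling, and 45.9%, 56.5% and 42.5% with quantile normalization.

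The groups share replicate numbers. Deviations of the libraries from their group mean were correlated between groups, over genes averaging 5 FPKM or more. Same-numbered libraries gave -0.195 to 0.263, and differently numbered ones -0.222 to 0.179. These ranges overlap, and with 3 libraries a group they cannot settle whether equal numbers mark pairs. Not every library correlated best with its own number. With the replicate block the members called were again 8, 0 and 8, and all genes called were 2309, 516 and 2654.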
